A study of Mus musculus with 4 samples.

Results

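The genes described here are 10 that relay signals below Toll-like receptors, followed in the mouse microglial cell line BV-2. They were taken from a list of gene symbols, and each gene was represented by its most abundant RefSeq transcript record in the deposited count table. All 10 had a record among the 23783 genes with a symbol, and 6 of them passed the filter on low counts (Myd88, Ticam1, Ticam2, Irak3, Traf6 and Tbk1). The series holds 4 RNA-seq samples in 2 groups. The LPS group had 2 libraries of BV-2 cells given lipopolysaccharide (LPS), a bacterial cell wall component, at 10 ng/ml for 4 h. The control group had 2 libraries of the same cells, also marked 4 h in the titles. Every sample is labelled as BV-2, but the growth text also describes mixed glial cultures and their shaking, and the labels do not settle how that step bears on these samples. BV-2 cells descend from mouse microglia, the macrophages of the brain, and as 1 immortalised line they model those cells only in part. The labels do not say that the 2 libraries of a group came from separate cultures. All p-values therefore measure the spread between these libraries, which may be technical.

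Toll-like receptors and the interleukin-1 receptor carry a cytoplasmic TIR domain that binds adaptor proteins with a TIR domain of their own. MyD88, brought to some receptors by TIRAP, gathers the kinases IRAK4, IRAK1 and IRAK2, which hand the signal to the ubiquitin ligase TRAF6 and on to NF-kB and MAP kinases. TRIF, encoded by Ticam1, works below TLR3 and, with the bridging adaptor TRAM encoded by Ticam2, below internalised TLR4, and leads through the kinase TBK1 to interferon regulatory factors. IRAK-M, encoded by Irak3, is known as an inhibitor of the MyD88 branch in macrophages.

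Library totals were 3368693 and 3082538 counts in the LPS group and 2778686 and 3059196 in the control group. The 5 most abundant records took 56.9% to 57.7% of the LPS libraries and 53.4% to 67.5% of the control libraries. This left 1327707 to 1423391 and 902176 to 1425303 counts for all others. The largest was NR_046233, without a matched symbol, at 1092787 and 942807 counts in the LPS libraries and 1062047 and 949185 in controls. Lars2 came next, at 752910 and 703973 after LPS and 740121 and 575472 in controls. Values below are normalised counts, meaning counts rescaled to a common effective library size of 3108147. Log2 normalised counts had a Pearson correlation of 0.981 between the LPS libraries and 0.949 between the control libraries across 6981 records, which are not independent replicates. The macrophage receptor gene Csf1r had 429 and 454 normalised counts in the LPS libraries and 551 and 473 in the control libraries. The 12 microglial or macrophage markers summed to 2971 and 2947 normalised counts in the LPS libraries and 3048 and 2561 in the control libraries. Of the 6 that passed the filter, Spi1, the gene of the myeloid factor PU.1, rose, with 1121 and 1129 after LPS against 580 and 438 in controls (log2 fold change 1.15, edgeR adjusted p 0.00391). The other 5, Csf1r among them, were lower in both LPS libraries than in either control without passing the test. Such an order held for 21.9% of all tested records. Fcgr3 came closest to the threshold (log2 fold change -0.68, edgeR adjusted p 0.0568). The part of these markers in the results below was not tested. Itgam was at 0 in every library and Trem2 had 1 count in all. Ptprc had 5 and 1 counts in the LPS libraries and 0 and 5 in the control libraries. Markers with 1 record were low as well. Aif1 had 4 and 3 counts after LPS and 3 and 7 in controls. P2ry12 had 1 and 0 against 3 and 5, and Cx3cr1 had 9 and 8 against 4 and 2. The 4 astrocyte, 4 neuronal, 4 oligodendrocyte and 3 endothelial markers summed to at most 1.96 normalised counts per class in any library, and 12 of these 15 genes were at 0 throughout. Itgam, Trem2, Ptprc and 7 of those 15 have 2 or more records in the table. Such genes often had few counts (given with the records of Irak1, Irak2 and Tirap), so their values near 0 are not read as absence.

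Of the 6 tested genes, 2 rose after LPS and none fell (edgeR's quasi-likelihood test, Benjamini-Hochberg adjusted p under 0.05). The risers were Irak3 and Ticam1, 1 from each branch. Irak3 entered the test through the LPS libraries, since its control counts alone would not have passed the filter. The counts and the median given for the 6 genes include it and are a description only. Over all 6981 records tested, 3.82% were called higher and 1.7% lower (267 and 119 records, so 69.2% of calls were higher). When the dependence of each library on GC content and length was taken out, 6.24% were called higher and 4.67% lower (57.2% of calls higher), and with the replicate number as a block 5.74% and 4.13% (58.2% of calls higher). Both of these fits called Myd88 in addition to Irak3 and Ticam1. The median log2 fold change of the 6 genes was 0.61, against -0.01 over all records. In 4 of the 6 (Myd88, Ticam1, Irak3 and Tbk1) both LPS libraries lay above both control libraries, which held for 21.4% of all records, and in Ticam2 both lay below, which held for 21.9%. RNA was measured in bulk, so a change in the RNA of each cell and a change in the share of cells that express a gene cannot be told apart.

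Irak3 changed most. Positions given with a record, here and below, span the whole gene. The Irak3 record (NM_028679, GRCm38 chromosome 10, 120141648 to 120202130) had 59 and 66 counts in the LPS libraries against 5 and 7 in the control libraries. These are 54.5 and 64.5 normalised counts after LPS and 7.03 and 5.91 in controls. Both LPS libraries were several times above either control, and the replicates of each group lay close together. The means were 59.5 ± 7.07 in LPS and 6.47 ± 0.795 in control (SD, n = 2 each), a log2 fold change of 3.20 (SE 0.371, edgeR adjusted p 0.000239). This is a 9.21-fold difference with a 95% interval of 5.23 to 16.2, and 47 of the 6981 records, Irak3 included, had a log2 fold change at least as high. Irak3 was the 1 gene of the 6 whose control counts alone would not have passed the filter, so it entered the test through the LPS libraries. Over 12 other settings its log2 fold change ran from 3.05 to 3.33, with adjusted p-values from 1.33e-13 to 0.00143. Its annotated exons share 192 bases with Tmbim4 on the opposite strand, a gene whose log2 fold change was 0.35 (edgeR adjusted p 0.594).

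Ticam1, the gene of the adaptor TRIF (NM_174989, chromosome 17, 56269462 to 56276767), had 69 and 64 counts in the LPS libraries against 16 and 20 in the control libraries. On the normalised scale these were 63.8 and 62.6 after LPS and 22.5 and 16.9 in controls. The groups were well apart, and the 2 LPS values were nearly equal. With means of 63.2 ± 0.851 in LPS and 19.7 ± 3.98 in control (SD, n = 2 each), the log2 fold change was 1.71 (SE 0.302, edgeR adjusted p 0.00546). The fold was 3.27 with a 95% interval of 2.07 to 5.19, and no annotated gene overlaps Ticam1. Across 12 other settings the log2 fold change stayed between 1.48 and 1.91, and the adjusted p was at most 0.0185, in the DESeq2 Wald test.

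Ticam2, the gene of TRAM, was lower in both LPS libraries, where Ticam1 was higher. The record of this bridging adaptor (NM_173394, chromosome 18, 46558231 to 46574533) had 22 and 16 counts in the LPS libraries and 18 and 31 in the control libraries, or 20.3 and 15.6 normalised counts after LPS and 25.3 and 26.2 in controls. Both LPS values were lower, by a margin the test did not call (log2 fold change -0.51, SE 0.348, edgeR adjusted p 0.596, 95% interval -1.28 to 0.25). Ticam2 shares 838 exon bases on the same strand with its neighbour Tmed7, and how reads in that stretch were assigned is not given in the sources used here. Tmed7 had 536 and 543 normalised counts in the LPS libraries and 435 and 528 in the control libraries.

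Counts of the 2 TRIF-branch adaptor genes can be compared within each library, where library size plays no part but transcript length does. The Ticam1 transcript has 2992 bases and that of Ticam2 has 4204. Per kilobase, Ticam1 stood at 21.3 and 20.9 against 4.84 and 3.72 for Ticam2 in the LPS libraries. In control replicate 1 it was 7.52 against 6.02, and in control replicate 2 it was 5.64 against 6.22. The shares below are of counts without a correction for length. Ticam1 made up 75.8% and 80.0% of the summed Ticam1 and Ticam2 counts in the LPS libraries, with exact 95% binomial intervals of 65.7% to 84.2% and 69.6% to 88.1%. In the control libraries it made up 47.1% (29.8% to 64.9%) and 39.2% (25.8% to 53.9%). The intervals of the LPS libraries did not overlap those of the control libraries. Such intervals cover counting error only and leave out any spread between libraries. Since the libraries carry no molecular identifiers, copies of the same molecule could not be told apart either. The intervals compare libraries and are not a test between conditions. Ticam1 has a GC content of 56.4% and Ticam2 of 45.1%, and the control libraries differed with GC content (given with Tbk1). The part of GC content in these shares was not tested.

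**Figure D1:**
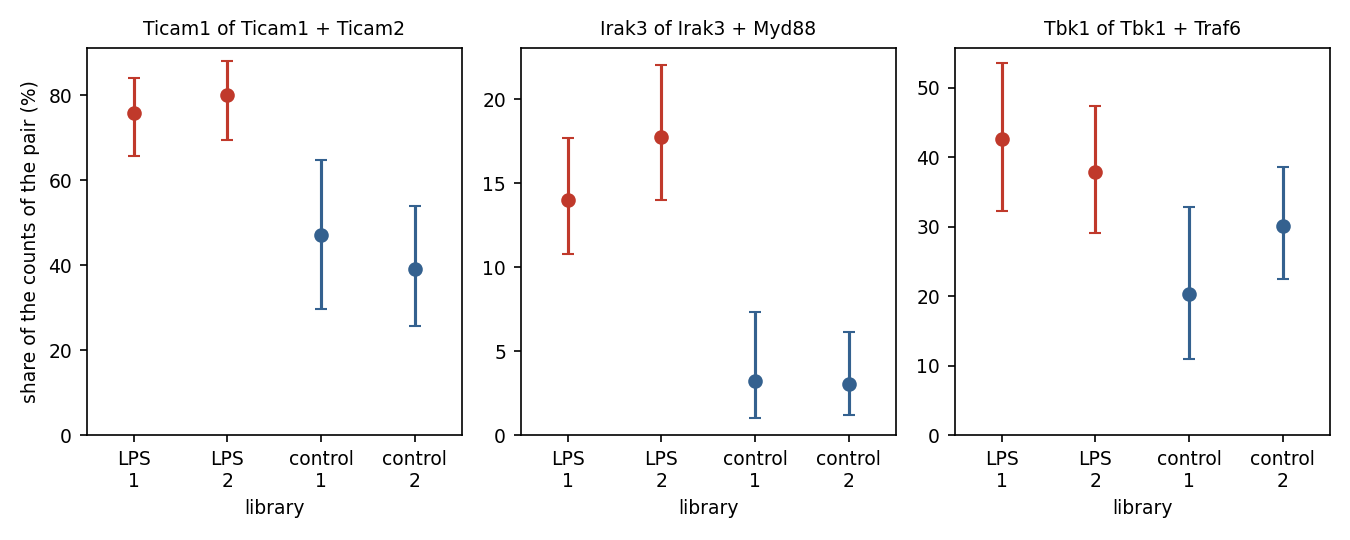
Share of the counts of 2 genes that came from the first-named gene, in percent, for each library (LPS in red, control in blue), with exact 95% binomial intervals. Ticam1 holds 75.8% and 80.0% of the Ticam1 and Ticam2 counts in the LPS libraries and 47.1% and 39.2% in controls; the intervals of Tbk1 against Traf6 overlap between groups.

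Myd88, the shared adaptor gene of most Toll-like receptors, was the most abundant of the 6 tested genes. It was higher in both LPS libraries, without passing the threshold over all records. The record (NM_010851, chromosome 9, 119335934 to 119340018) had 363 and 306 counts in the LPS libraries against 151 and 223 in controls. Normalised, the values were 336 and 299 after LPS and 212 and 188 in controls, so the groups did not overlap. The means of 317 ± 25.7 in LPS and 200 ± 17.1 in control (SD, n = 2 each) gave a log2 fold change of 0.67 (SE 0.192, edgeR adjusted p 0.0788, unadjusted p 0.00514). Its 95% interval ran from 0.25 to 1.09, or 1.19-fold to 2.13-fold, before any adjustment. Of 13 other settings, 5 brought Myd88 past the threshold, among them the removal of the GC and length trend (adjusted p 0.00527). The adjusted p was 0.877 without LPS replicate 1 and 0.592 without LPS replicate 2, against 0.000111 without control replicate 1 and 0.00941 without control replicate 2. Myd88 shares 290 exon bases with Acaa1a on the opposite strand, which had a log2 fold change of 0.06, and the strand setting of the counting is not given in the sources used here.

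Counts of Irak3 and Myd88 were also set against each other within libraries. Irak3 made up 14.0% (10.8% to 17.7%) and 17.7% (14.0% to 22.0%) of the summed counts of the pair in the LPS libraries. In the control libraries the share was 3.21% (1.05% to 7.32%) and 3.04% (1.23% to 6.17%). The inhibitor transcript thus took up a larger part of the pair in both LPS libraries than in either control. Ticam1 set against Myd88 in the same way held 16.0% and 17.3% after LPS and 9.58% and 8.23% in controls, where the intervals of both LPS libraries (12.6% to 19.8% and 13.6% to 21.5%) overlapped that of control replicate 1 (5.58% to 15.1%) and neither overlapped that of control replicate 2 (5.10% to 12.4%).

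Traf6, the ubiquitin ligase gene on which the IRAK kinases converge (NM_009424, chromosome 2, 101678420 to 101701668), did not pass the test. It had 51 and 72 counts in the LPS libraries and 47 and 93 in the control libraries. Its normalised counts were 47.2 and 70.4 after LPS and 66.1 and 78.5 in controls, with overlapping groups. The log2 fold change was -0.31 (SE 0.275, edgeR adjusted p 0.736), and the 95% interval of -0.92 to 0.29 spans from a 0.529-fold to a 1.23-fold level.

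Tbk1, the kinase gene of the TRIF branch (NM_019786, chromosome 10, 121546455 to 121586794), depended on which control library was used. The LPS libraries had 38 and 44 counts and the control libraries 12 and 40, which became 35.1 and 43.0 normalised counts after LPS and 16.9 and 33.8 in controls. Control replicate 1 stood apart at the lower level, while control replicate 2 lay just under the LPS values. The log2 fold change was 0.55 (SE 0.354, edgeR adjusted p 0.562, 95% interval -0.23 to 1.33). Without control replicate 2 it was 1.20 with an adjusted p of 0.0367, and without control replicate 1 it was 0.22 with an adjusted p of 0.718. The transcript has a GC content of 45.4%, and the log2 difference of control replicate 2 minus control replicate 1 was 0.96 for Tbk1, against a median of 0.50 over 1969 records below 46% GC. For Ticam1, with 56.4% GC, this difference was -0.39, and the median over 1958 records at or above 54% GC was also -0.39. Across 6956 records the same difference had a Spearman correlation of -0.66 with GC content, where records share their libraries and base composition. The part of GC content in the Tbk1 values was not tested beyond the fit with its trend removed, where the log2 fold change was 0.44 (adjusted p 0.417). Beside Traf6 within a library, Tbk1 held 42.7% and 37.9% of the counts of the pair after LPS and 20.3% and 30.1% in controls, with overlapping intervals.

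**Figure D2:**
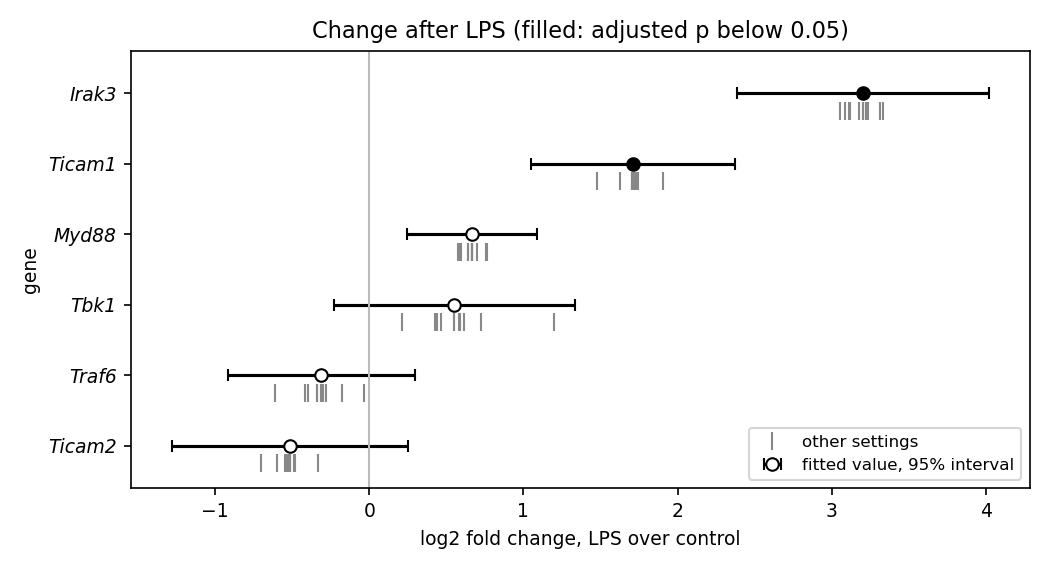
Fitted log2 fold change of LPS over control for the 6 tested genes with 95% intervals (circles, filled where the adjusted p was below 0.05) and the values under other settings (grey ticks). Irak3 at 3.20 and Ticam1 at 1.71 lie clear of 0 under every setting drawn, and the Tbk1 tick at 1.20 is the fit without control replicate 2.

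Levels of different genes were compared per kilobase of transcript. In the LPS libraries the order of mean normalised counts per kilobase was Myd88 (162 ± 13.1), Ticam1 (21.1 ± 0.285), Irak3 (19.2 ± 2.28), Tbk1 (12.9 ± 1.85), Traf6 (9.53 ± 2.67) and Ticam2 (4.28 ± 0.789), each SD over n = 2. In the control libraries it was Myd88 (102 ± 8.72), Traf6 (11.7 ± 1.42), Tbk1 (8.37 ± 3.95), Ticam1 (6.58 ± 1.33), Ticam2 (6.12 ± 0.142) and Irak3 (2.09 ± 0.257). Irak3 was thus the scarcest of the 6 transcripts per length in controls and stood beside Ticam1 after LPS. The ranges of Traf6, Tbk1, Ticam1 and Ticam2 overlapped from each to the next in controls. After LPS no neighbouring ranges overlapped, but Ticam1 and Irak3 were close, at 20.9 to 21.3 and 17.6 to 20.8, as were Tbk1 and Traf6, at 11.6 to 14.2 and 7.64 to 11.4.

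The remaining 4 genes (Irak4, Irak1, Irak2 and Tirap) did not pass the filter. Irak4, the first kinase of the MyD88 complex (NM_029926, chromosome 15, 94543613 to 94568317), had 7 and 1 counts in the LPS libraries and 0 and 1 in the control libraries. Its rate ratio was 7.21 with an exact 95% interval of 0.966 to 320, which includes equal rates, and 7 of the 8 LPS counts lay in LPS replicate 1. Irak2, a kinase partner of IRAK4 (NM_172161, chromosome 6, 113638467 to 113695026), had 3 and 0 counts in the LPS libraries and 0 in both controls. Irak1 (NM_001177973, chromosome X, 74013914 to 74023921) had 1 count, in LPS replicate 1, and Tirap (chromosome 9, 35184391 to 35200291) had none in any library. For Tirap, 0 counts allow a mean of up to 1.43 normalised counts in the LPS group and 1.58 in the control group, taking 3 counts over a group as the limit. No fold is given for Irak1, Irak2 and Tirap.

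Irak1, Irak2 and Tirap are the 3 genes with more than 1 record in the table, with 5, 2 and 4 records, while the other 7 have 1 each. Across the table, 46.7% of 15857 coding genes with 1 record had at least 10 counts over the 4 libraries, against 14.6% of 4544 genes with 2 or more. Gapdh, a glycolytic gene that cells express at a high level, has 2 records and 30 counts in all, whereas Actb, with 1 record, has 29565. Most exon bases of Irak1 and Irak2 lie in several of their records at once. In Irak2, 222 bases of NM_172161 (6.95%) lie in no other record and none of NM_001113553 do, and the 3 counts fell on the first. In Irak1 the single count fell on NM_001177973, the record with the most bases of its own, 117. Tirap differs, since NM_001177845 holds 2361 bases that no other Tirap record has and still had no count. How reads that match several records were counted is not given in the sources used here, so values near 0 for these 3 genes are not read as absent expression, and their response to LPS was not measurable in this table.

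**Figure D3:**
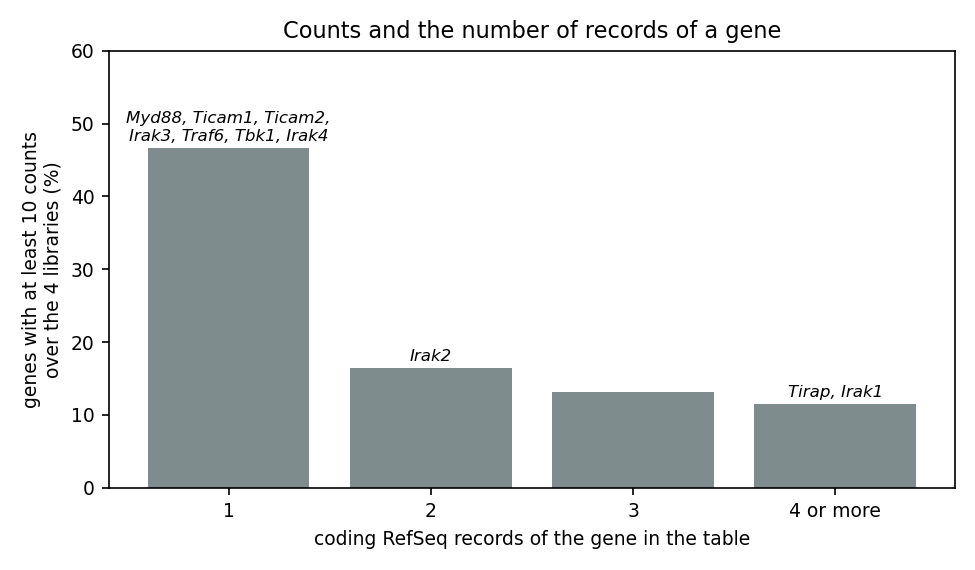
Percent of coding genes with at least 10 counts over the 4 libraries, by the number of coding RefSeq records the gene has in the table, with the 10 genes written over their class. The share is 46.7% for 1 record, 16.5% for 2 (Irak2), 13.1% for 3 (none of the 10 genes) and 11.5% for 4 or more (Tirap and Irak1).

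Promoter sequence was taken from RefSeq windows on GRCm38.p6 for 9 of the 10 genes, and Ticam2 had no entry. Shown are the stretches before the starts of the 2 called genes and of Myd88, the next in fold change, left without annotated exon bases. They are chr10:120202196-120202380, chr17:56276787-56277017 and chr9:119340042-119340268, all on the minus strand and 5′ to 3′, and end 65, 19 and 23 bases before the annotated start. Irak3 has 2 start windows, and the one shown belongs to the upstream start. The GENCODE transcript linked to the counted Irak3 record starts at 120201659, inside the other window (120201548 to 120201847). The stretch shown may therefore not be the promoter of the counted record. Capitals mark GAAA followed, after any 2 bases, by GAAA again, a pattern found in interferon-stimulated response elements.
Irak3: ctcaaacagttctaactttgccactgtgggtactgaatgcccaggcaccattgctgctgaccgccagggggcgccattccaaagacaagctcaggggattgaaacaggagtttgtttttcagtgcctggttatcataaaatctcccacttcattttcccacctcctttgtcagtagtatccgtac
Ticam1: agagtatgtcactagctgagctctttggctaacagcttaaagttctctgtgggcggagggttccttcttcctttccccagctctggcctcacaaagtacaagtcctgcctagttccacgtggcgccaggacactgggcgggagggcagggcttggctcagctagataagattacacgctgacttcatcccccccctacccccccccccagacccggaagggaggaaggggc
Myd88: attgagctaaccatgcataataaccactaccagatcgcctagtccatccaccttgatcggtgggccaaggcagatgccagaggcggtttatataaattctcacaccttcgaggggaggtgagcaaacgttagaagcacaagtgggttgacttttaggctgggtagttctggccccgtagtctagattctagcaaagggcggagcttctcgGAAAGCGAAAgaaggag

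Both strands of the 250 bases before each start were searched for 4 motifs, none of which contains another. The match in Myd88, GAAAGCGAAA, starts 40 bases before the RefSeq start and was the 1 match to this spaced GAAA pair in the 12 windows of the 9 genes; 2.98% of all 32851 windows hold one. The kappaB consensus was found in the 2 overlapping windows of Irak1, as GGGACGCCCC, and in 7.25% of all windows. TGANTCA and TGACGTCA were in none of the 12, against 6.75% and 1.55% of all windows. A missing match says only that these letters are not in the window.

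Other genes of the pathway gave a frame for these values. Of 62 genes in 4 lists, 27 passed the filter, 8 rose and 1 fell, beside 3.82% and 1.7% over all records. The median log2 fold change of the tested genes was 0.18. A different set of 27 of the 62 genes has 2 or more records, 7, 6, 6 and 8 in the order of the lists below. Low counts of such genes are not read as absence. Lists and members were chosen with earlier results of these data known, so the counts are a description. Of the 27 tested genes, 24 would have passed the filter on the control and on the LPS libraries alike, all 9 called genes among them.

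Among 7 tested receptor and recognition genes of 20, Cd14 and Tlr2 rose and Tlr13 fell. Cd14, which hands LPS to the TLR4 complex, had 2554 and 2588 normalised counts in the LPS libraries against 603 and 471 in controls (log2 fold change 2.26, edgeR adjusted p 2.49e-05). Tlr2, a receptor for bacterial lipoproteins that signals through MyD88, had 1331 and 1202 after LPS against 222 and 325 in controls (log2 fold change 2.20, edgeR adjusted p 6.48e-05). Tlr13, a mouse sensor of bacterial ribosomal RNA, had 140 and 165 after LPS against 243 and 339 in controls (log2 fold change -0.94, edgeR adjusted p 0.0294). All 3 were apart between groups, and the list median was 0.05.

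Of 11 tested genes of 16 at the steps below TRAF6, 1 rose, none fell and the list median was -0.05. Map3k7, Chuk, Ikbkb and Ikbkg have 2 or more records and were not among the 11, so their response was not measured. The riser was Map3k8, the kinase TPL2 that connects receptor signals to ERK, with 62.9 and 73.3 normalised counts in the LPS libraries against 18.3 and 20.3 in controls (log2 fold change 1.80, edgeR adjusted p 0.00334). Near TBK1, 2 of 9 genes were tested. Ikbke, the kinase most like TBK1, rose to 756 and 847 normalised counts in the LPS libraries, against 156 and 143 in controls (log2 fold change 2.42, SE 0.192, edgeR adjusted p 1.47e-05). The 95% interval of Tbk1 ended at 1.33, below the value of this relative, although the difference between them was not tested.

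The list of inhibitors and brakes also takes in regulators such as Peli1. Of its 17 genes, 7 were tested, 4 rose and none fell, and the list median was 1.08. Zc3h12a, an RNase that degrades inflammatory mRNAs, had 165 and 175 normalised counts in the LPS libraries against 23.9 and 20.3 in controls (log2 fold change 2.96, edgeR adjusted p 2.66e-05). Nfkbia, the gene of IkB-alpha, had 448 and 417 after LPS against 71.7 and 60.8 in controls (log2 fold change 2.72, edgeR adjusted p 1.4e-05). Of the called genes in the 4 lists, these 2 came closest to Irak3 in log2 fold change. Peli1, a ubiquitin ligase of IRAK complexes that is placed here among the regulators, rose by 1.64 on the log2 scale (edgeR adjusted p 0.0017), and Pik3ap1, the adaptor BCAP, by 1.08 (edgeR adjusted p 0.0121).

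**Figure D4:**
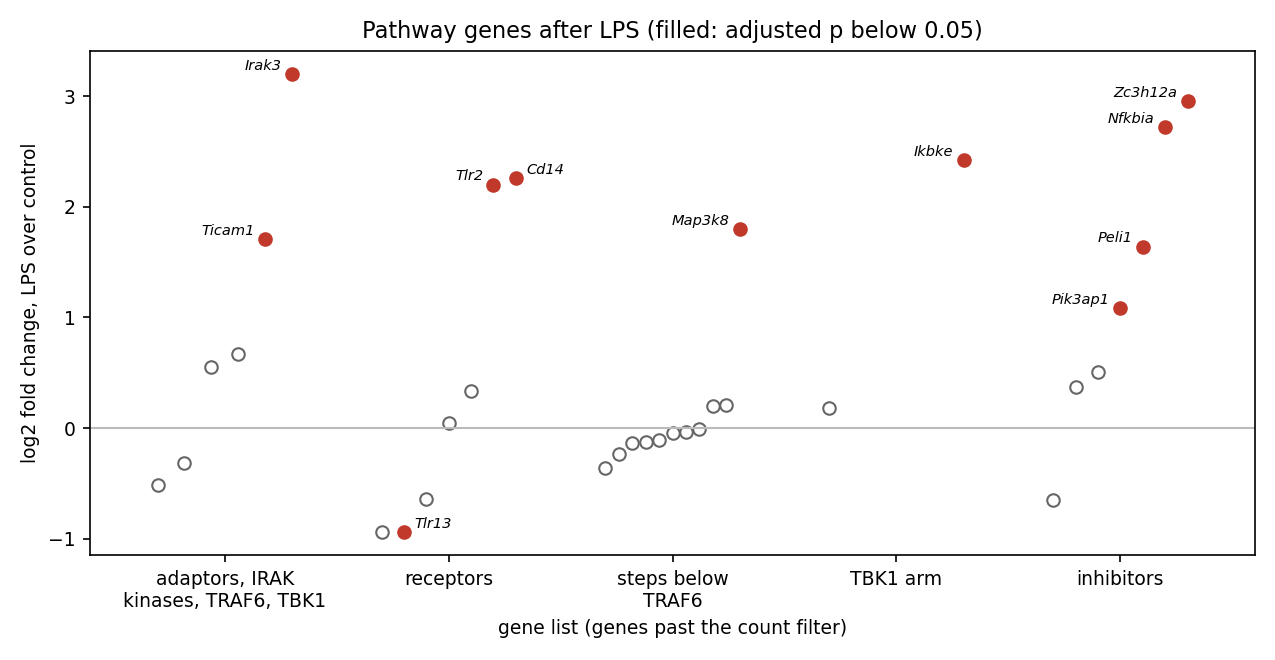
Log2 fold change of LPS over control for each tested gene of the adaptor and kinase group and of 4 other pathway lists, filled and named where the adjusted p was below 0.05. Of 11 genes below TRAF6, 10 lie open near 0, while Irak3 at 3.20 sits beside Zc3h12a at 2.96 and Nfkbia at 2.72.

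The records whose profile over the 4 libraries lay nearest to each called gene were found by Euclidean distance between log2(normalised count + 1) values, each centred on its own mean. For Irak3 they were Osm, Zc3h12a and Slfn2, at distances of 0.0828, 0.165 and 0.179. For Ticam1 they were Nfkb1, Polm and Fosl2, at 0.103, 0.110 and 0.124. Osm, the gene of the cytokine oncostatin M, had 199 and 244 normalised counts in the LPS libraries against 28.1 and 22.8 in controls. Nfkb1, the gene of the NF-kB subunit p105 and p50, had 545 and 527 after LPS against 207 and 161 in controls. The choice by distance favours records that share the order of the libraries with their partner, so that order is no separate result. The lower LPS value was in replicate 1 for Osm as for Irak3. The lower control value was in replicate 2 for all 4 genes.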

How the data were processed

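Libraries were directional, randomly primed and depleted of ribosomal RNA, per the labels' protocols. How much ribosomal RNA remained was not tested. The authors deposited a table of read counts, in whole numbers, for each RefSeq transcript; it is named as normalised, but its column totals differ, so the counts were used as raw. The submitters' processing notes name HTSeq 0.6.1, Cufflinks 2.2.1, TopHat2 2.0.10, Trimmomatic 0.33, CASAVA 1.8.2 and build mm10, without roles. Of 32915 records, 32487 matched a symbol in RefSeq's GRCm38.p6 table. Length and GC content came from GENCODE M21 transcripts (6956 of 6981 tested records).

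Records were kept by filterByExpr (minimum count 10), scaled by TMM and tested in R 4.3.3 with the quasi-likelihood method of edgeR 4.0.16, with group as the only term and Benjamini-Hochberg adjustment over all records (threshold 0.05). The standard error is the log2 fold change over the square root of F. The code was tested on simulated data. The genes and lists were chosen with earlier results of these data known. Named are the 10 genes, at most 5 called genes per pathway list and the 3 nearest profiles per called gene; overlapping, marker (Spi1, Csf1r) and comparison genes were added after seeing values. DESeq2 1.42.0, limma 3.58.1, other scalings and filters, left-out libraries, a replicate block, added records and a GC and length trend were tried.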

Additional observations from a re-analysis of the deposited data

How the results depend on the processing

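Irak3 and Ticam1 stayed higher and past the threshold in all 12 alternatives that tested them, and no direction of the 6 tested genes reversed. In 6 cases a gene that had missed the threshold passed it, 5 for Myd88 and 1 for Tbk1. Among records averaging 50 or more normalised counts, Myd88 and Traf6 were the genes left to test, and edgeR called 0 of these 2 (1 with an unadjusted p below 0.05), 218 records in all, 164 higher and 54 lower. Fewer records were lower in the DESeq2 Wald test (66) and more without a filter on low counts (209). Removing the GC and length trend gave 759 calls, 434 higher and 325 lower, with 3 of the 10 genes called. The replicate block gave 689, 401 higher and 288 lower, also with 3 of the 10 (Myd88 added). The labels do not say that replicate numbers pair the libraries, and for that reason the main fit had no replicate term. Deviations of same-numbered libraries had a correlation of 0.242 over 6981 records. With 2 libraries per group this value cannot settle whether same-numbered libraries share a batch. Leaving out 1 library gave 204 to 1304 calls, 165 to 723 higher and 39 to 581 lower, 2 to 4 of the 10 genes and 7 to 14 pathway genes; the spread then came from the pair left whole. The cause of these shifts was not tested further. Without the filter, 9 of the 10 genes were tested and 3 called (Myd88, Ticam1 and Irak3); Irak4, Irak1 and Irak2 rested on 9, 1 and 3 counts in all.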
